A study of Mus musculus with 12 samples.

Results

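The expression of 10 genes of the Notch pathway and of secretory cell fate was followed in mouse small intestine: the ligands Dll1, Dll4 and Jag1, the receptors Notch1 and Notch2, the HES factors Hes1 and Hes6, and the fate factors Atoh1, Gfi1 and Neurog3. Every probe set carrying one of these 10 gene symbols was taken, which gave 17 of the 45101 probe sets on the array. RNA of 12 intestinal samples, 3 per genotype, had been hybridised to Affymetrix MOE430_2 arrays at day 5 after induction of Cre recombinase. The study asked whether p53 modifies the early consequences of Apc loss. The 4 genotypes were Cre+Apcfl/flp53-/- (double-deficient), Cre+Apcfl/flp53+/+ (Apc-deficient), Cre+Apc+/+p53-/- (p53-deficient) and Cre+Apc+/+p53+/+ (control). All mice, controls included, carried the AhCre transgene and received 3 intraperitoneal injections of β-naphthoflavone at 80 mg/kg, an inducer of the Cyp1a promoter that drives this Cre. Apc was therefore recombined only where the transgene was active, whereas p53 was absent from the germline and so from every cell type. Ages and sexes of the mice were not given in the sources used here.

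Notch signalling passes between touching cells. Delta-like and Jagged ligands on one cell bind Notch receptors on its neighbour, the receptor is cut by ADAM proteases and γ-secretase, and the freed intracellular domain joins RBPJ to switch on genes such as Hes1. In the intestinal crypt HES1 represses Atoh1, so that cells with Notch signalling remain progenitors or become absorptive enterocytes. Cells that escape Notch signalling express Atoh1 and Dll1 and become secretory, among them goblet, Paneth and enteroendocrine cells. GFI1 acts downstream of ATOH1, NEUROG3 is required for the enteroendocrine lineage, and HES6 is known as an antagonist of HES1. Loss of Apc releases β-catenin, which acts with TCF factors in the Wnt pathway and holds cells in a crypt-like state.

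The sequences just upstream of 4 of these genes are shown. Atoh1 was taken because HES1 represses it, and Neurog3, Dll1 and Notch2 because they were among the genes that changed. Each sequence is the 250 bases before an annotated start site in the RefSeq annotation of GRCm38.p6, written 5′ to 3′ on the strand of the gene. Atoh1 lies at chr6:64728875-64729124 (plus strand), Neurog3 at chr10:62132840-62133089 (plus strand), Dll1 at chr17:15376933-15377182 (minus strand) and Notch2 at chr3:98013288-98013537 (plus strand). Capitals mark, on either strand, the HES class C letters CACGCG, the N-box letters CACNAG that HES factors also bind, and the TCF letters CTTTGAT.
Atoh1: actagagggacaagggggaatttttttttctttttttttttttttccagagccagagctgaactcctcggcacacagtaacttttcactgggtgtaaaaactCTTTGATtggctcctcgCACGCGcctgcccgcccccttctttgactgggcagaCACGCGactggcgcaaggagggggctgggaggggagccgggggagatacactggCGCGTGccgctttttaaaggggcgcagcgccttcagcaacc
Neurog3: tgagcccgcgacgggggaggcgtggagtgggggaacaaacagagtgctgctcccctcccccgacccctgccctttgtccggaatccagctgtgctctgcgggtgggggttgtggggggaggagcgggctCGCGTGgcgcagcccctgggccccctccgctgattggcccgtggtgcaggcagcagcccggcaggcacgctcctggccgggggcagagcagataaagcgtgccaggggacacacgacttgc
Dll1: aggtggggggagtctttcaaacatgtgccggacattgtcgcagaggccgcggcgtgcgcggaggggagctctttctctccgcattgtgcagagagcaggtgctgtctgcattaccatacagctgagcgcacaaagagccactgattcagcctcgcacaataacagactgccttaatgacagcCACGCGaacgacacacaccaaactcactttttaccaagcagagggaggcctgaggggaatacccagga
Notch2: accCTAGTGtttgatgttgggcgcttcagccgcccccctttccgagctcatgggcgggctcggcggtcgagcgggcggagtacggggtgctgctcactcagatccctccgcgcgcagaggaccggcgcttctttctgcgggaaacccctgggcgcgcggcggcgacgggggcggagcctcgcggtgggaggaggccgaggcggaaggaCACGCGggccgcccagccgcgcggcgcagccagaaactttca
The Atoh1 window held 3 copies of the class C letters, which only 0.225% of the 32851 mouse windows of this length did, and 1 copy of the TCF letters, found in 3.21% of all windows. Neurog3, this Dll1 start and Notch2 held 1 class C copy each, and Notch2 held an N-box as well. Hes6 changed too but is not shown, and each of its windows held 0 class C copies. Its window at chr1:91413223-91413472 (minus strand) held 1 N-box. The second Dll1 window in the table, at chr17:15375824-15376073 (minus strand), held 0 matches to any of the 4 motifs searched. At least 1 class C copy was present in 6 of the 12 windows of the 9 member genes in the table, against 7.62% of all windows, but median GC content was 63.8% in the member windows and 52.4% in all windows, and CACGCG is itself rich in G and C. N-box letters stood in 36.7% of all windows. The RBPJ letters GTGGGAA, present in 5.42% of all windows, were in none of the member windows. Matches were counted on both strands with overlaps allowed, and they describe letters, not occupied sites.

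The signal of a probe set is given here after each array was scaled to the same mean log2 signal, on a linear scale in arbitrary units, and a probe set is called detected on an array where its detection p-value was under 0.05. Detection was known for 9 arrays, those of Apc-deficient, p53-deficient and control mice, as the columns of double-deficient arrays could not be matched to single mice and were not used. Of the 17 probe sets, 10 were detected on all 9 arrays and 1, the Notch2 probe set 1451889_at, on none. Comparisons used limma over 35622 probe sets with Benjamini-Hochberg adjustment, and a probe set was called at an adjusted p under 0.05. As whole-array background, a p53 probe set, 1426538_a_at, had signals of 3.55 to 15.1 on double-deficient and 7.945 to 11.97 on p53-deficient arrays, against 271.7 to 391.8 on Apc-deficient and 190.3 to 273.5 on control arrays, as the labels require; a second p53 probe set, 1438808_at, from an expressed sequence tag, did not separate the genotypes in this way (log2 difference for p53 loss 1.20, adjusted p = 0.058). The 9 markers of intestinal epithelium were detected in each of the 3 genotypes with known detection. Pancreas transcripts stood out on 2 arrays: the median log2 signal of 9 exocrine pancreas markers was 11.42 on double-deficient array 3 and 12.7 on control array 3, against 3.08 to 5.73 on the other 10. Smooth muscle markers were low on p53-deficient array 2 (median log2 7.78) and control array 1 (6.69), against 8.73 to 9.87 elsewhere. Detected probe sets numbered 21559 to 21833 on Apc-deficient, 20508 to 21139 on p53-deficient and 18388 to 19416 on control arrays.

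Apc loss, averaged over both p53 states (the 6 arrays from Apcfl/fl mice against the 6 from Apc+/+ mice), changed 4 of the 10 genes. Neurog3, Hes6 and Notch2 rose and Dll1 fell, while Atoh1, Hes1, Gfi1, Notch1, Dll4 and Jag1 gave no call. In probe sets this was 6 of 17 (35.3%), 5 higher and 1 lower. Over all probe sets tested 32.4% were called in this comparison (18.2% higher and 14.2% lower), so the members were called about as often as any probe set on the array. The median log2 difference was 0.18 over the 17 members and -0.01 over all probe sets. The plot of signals by genotype shows each gene on every array.

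**Figure D1:**
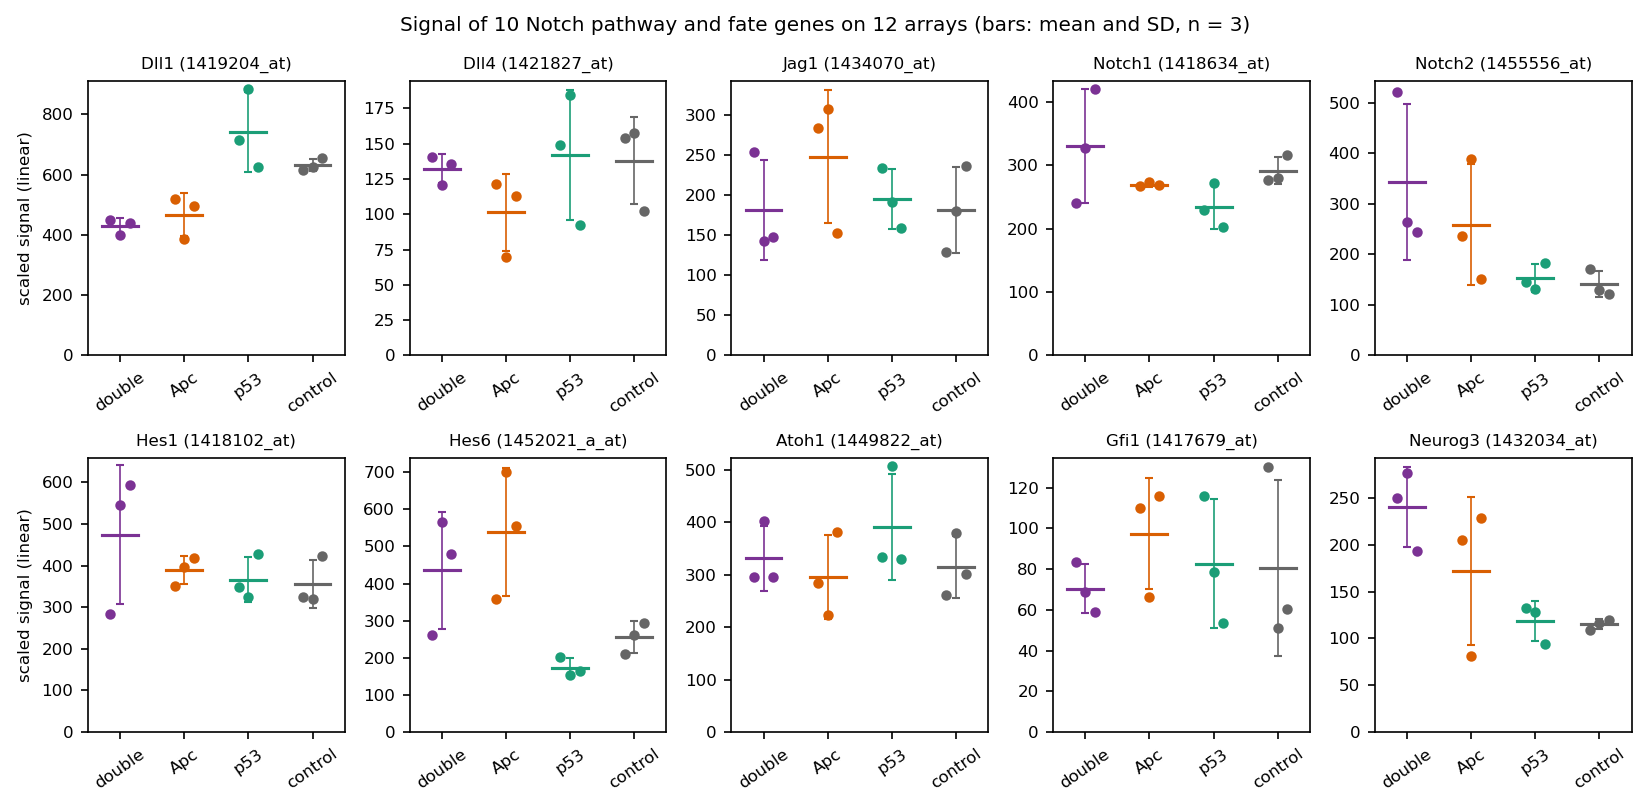
Scaled signal (linear, arbitrary units) of the probe set that represents each of the 10 genes, by genotype: double-deficient, Apc-deficient, p53-deficient and control. Points are arrays, bars the mean and SD of 3; Dll1 is lower on all 6 Apcfl/fl arrays than on all 6 Apc+/+ arrays, whereas Atoh1 and Hes1 overlap between all genotypes.

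Among the ligands, Dll1 had signals of 448.5, 399.4 and 440.1 on double-deficient arrays and 518.5, 387.3 and 497.1 on Apc-deficient arrays, against 713.9, 884.7 and 625.1 on p53-deficient and 616.1, 624.4 and 655.2 on control arrays (probe set 1419204_at). The highest Apcfl/fl array was below the lowest Apc+/+ array. Dll1 encodes the Delta-like ligand that secretory progenitors present to their neighbours. Its log2 difference for Apc loss was -0.61 (SE 0.14, adjusted p = 0.0077, limma), a ratio of 0.655. It was the 1 member of 17 whose 6 and 6 arrays did not overlap in this comparison, where 13.8% of all probe sets did not overlap. The log2 difference was -0.77 in double- against p53-deficient intestine (SE 0.20, adjusted p = 0.034) and -0.45 in Apc-deficient against control intestine (SE 0.20, adjusted p = 0.12), which missed the threshold.

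The remaining ligands gave no call in any comparison. Dll4, which acts redundantly with Dll1 in crypts, averaged 132.2 ± 10.2 in double-deficient, 101.3 ± 27.4 in Apc-deficient, 141.9 ± 46.2 in p53-deficient and 138 ± 30.9 in control intestine (SD, n = 3 each; probe set 1421827_at), and the log2 difference for Apc loss was -0.25 with a 95% interval of -0.73 to 0.23. Its second probe set, 1421826_at, lay at 0.20 (-0.20 to 0.60). Jag1, a ligand known as a Wnt target in intestinal tumours, averaged 181.4 ± 62.5, 248.1 ± 83.2, 195.3 ± 37.5 and 181.7 ± 53.5 in double-deficient, Apc-deficient, p53-deficient and control intestine (probe set 1434070_at), with an interval of -0.40 to 0.68 for Apc loss. Within genotypes these arrays were spread: the 3 Apc-deficient arrays alone ran over 283.6, 307.7 and 153.

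Of the receptors, Notch2 rose with Apc loss and Notch1 gave no call. Both receptors act redundantly to keep crypt progenitors from secretory fate. The Notch2 probe set 1455556_at had signals of 521.5, 264.2 and 244.2 on double-deficient and 235.7, 388 and 151.8 on Apc-deficient arrays, against 145, 130.9 and 183.4 on p53-deficient and 171.1, 130.2 and 122.2 on control arrays. All 3 double-deficient arrays exceeded every Apc+/+ array, but Apc-deficient array 3 lay among them. The log2 difference for Apc loss was 0.94 (SE 0.26, adjusted p = 0.021), a ratio of 1.91. Neither single comparison of Apc loss was called for Notch2. The log2 difference was 0.78 in Apc-deficient against control intestine (SE 0.37, adjusted p = 0.14, limma). In double- against p53-deficient intestine it was 1.09 (SE 0.37, adjusted p = 0.095). Double-deficient against control intestine, which differ in both Apc and p53, gave 1.21 (SE 0.37, adjusted p = 0.051). The other Notch2 probe set was not detected on any of the 9 arrays, so the receptor rests on 1 probe set. Notch1 had signals of 241.1, 326.6 and 420.9 on double-deficient, 266.5, 272.9 and 268.1 on Apc-deficient, 229.5, 271.3 and 202.3 on p53-deficient and 277.4, 280.2 and 315.3 on control arrays (1418634_at). Its log2 difference for Apc loss was 0.18, with a 95% interval of -0.17 to 0.53.

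The 2 HES factors differed in what they showed. Hes1, the main transcriptional target of Notch in the crypt, had signals of 282.9, 544.8 and 593.3 on double-deficient, 351.8, 395.9 and 417.5 on Apc-deficient, 347.4, 323.8 and 426.6 on p53-deficient and 323.2, 319.7 and 421.9 on control arrays. Double-deficient arrays 2 and 3 were the highest of the 12 and array 1 the lowest. The log2 difference for Apc loss was 0.22 (95% interval -0.21 to 0.66, adjusted p = 0.41). Leaving out both arrays with pancreas transcripts gave 0.19 (adjusted p = 0.55). Hes6 rose on both of its probe sets. On 1452021_a_at the signals were 260.3, 565 and 480.5 on double-deficient and 358.2, 701.9 and 554.3 on Apc-deficient arrays, against 201.1, 152.7 and 164.5 on p53-deficient and 209.8, 262.2 and 294.9 on control arrays. Double-deficient array 1 was the one Apcfl/fl array inside the control range. The log2 difference was 1.15 for averaged Apc loss (SE 0.23, adjusted p = 0.0042), a ratio of 2.22. Probe set 1436050_x_at, whose name marks probes that can hybridise to other transcripts, gave 0.70 (SE 0.22, adjusted p = 0.035), and lost its call without control array 1 (adjusted p = 0.077).

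Of the fate factors, Atoh1 and Gfi1 gave no call in any comparison and Neurog3 rose. Atoh1 is the factor required for goblet, Paneth and enteroendocrine cells. Its signals were 295.1, 403.1 and 296 on double-deficient and 283.7, 223.4 and 382 on Apc-deficient arrays. They were 334.3, 508.2 and 329.8 on p53-deficient and 262, 379.1 and 301.9 on control arrays. The 4 genotypes overlapped. The log2 difference for Apc loss was -0.16 (95% interval -0.59 to 0.26), an interval that does not reach a fall or rise of 1 on the log2 scale. Gfi1 averaged 70.4 ± 12.2 in double-deficient, 97.45 ± 27.3 in Apc-deficient, 82.7 ± 31.6 in p53-deficient and 80.5 ± 43.2 in control intestine, and its interval for Apc loss ran from -0.53 to 0.71.

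Neurog3 was not detected on any Apc+/+ array. Of the 9 arrays with known detection, both of its probe sets, 1432034_at and 1422312_a_at, were detected on 2 Apc-deficient arrays and on 0 p53-deficient and 0 control arrays. Signals on 1432034_at were 250.1, 277.2 and 193.5 on double-deficient and 205.6, 81.5 and 228.8 on Apc-deficient arrays, against 132.4, 128.7 and 93.6 on p53-deficient and 109.5, 116.9 and 120.1 on control arrays. Apc-deficient array 2 was the lowest of the 12 and the other 5 Apcfl/fl arrays were the highest. On 1422312_a_at the signals were 29.1, 79.7 and 50.35 on double-deficient and 57.3, 27.6 and 48.8 on Apc-deficient arrays, against 12.7, 5.375 and 3.405 on p53-deficient and 10.2, 19.5 and 33.1 on control arrays. Here control array 3, one of the 2 with pancreas transcripts, exceeded the lowest Apcfl/fl arrays. Because NEUROG3 also marks endocrine progenitors of the pancreas, the comparison was repeated without both such arrays, and 1422312_a_at kept its call (adjusted p = 0.0095) while 1432034_at lost it (log2 difference 0.82, adjusted p = 0.079). With all arrays, adjusted p was 0.0034 for 1422312_a_at and 0.045 for 1432034_at, whose call was kept in 7 of 19 alternatives. Because no Apc+/+ array detected Neurog3 and detection on double-deficient arrays was not used, no fold is given for the rise. The log2 differences printed for Neurog3 rest in part on signals below detection. With signals under 20 set to 20, the log2 difference was 0.99 on 1422312_a_at (adjusted p = 0.013).

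**Figure D2:**
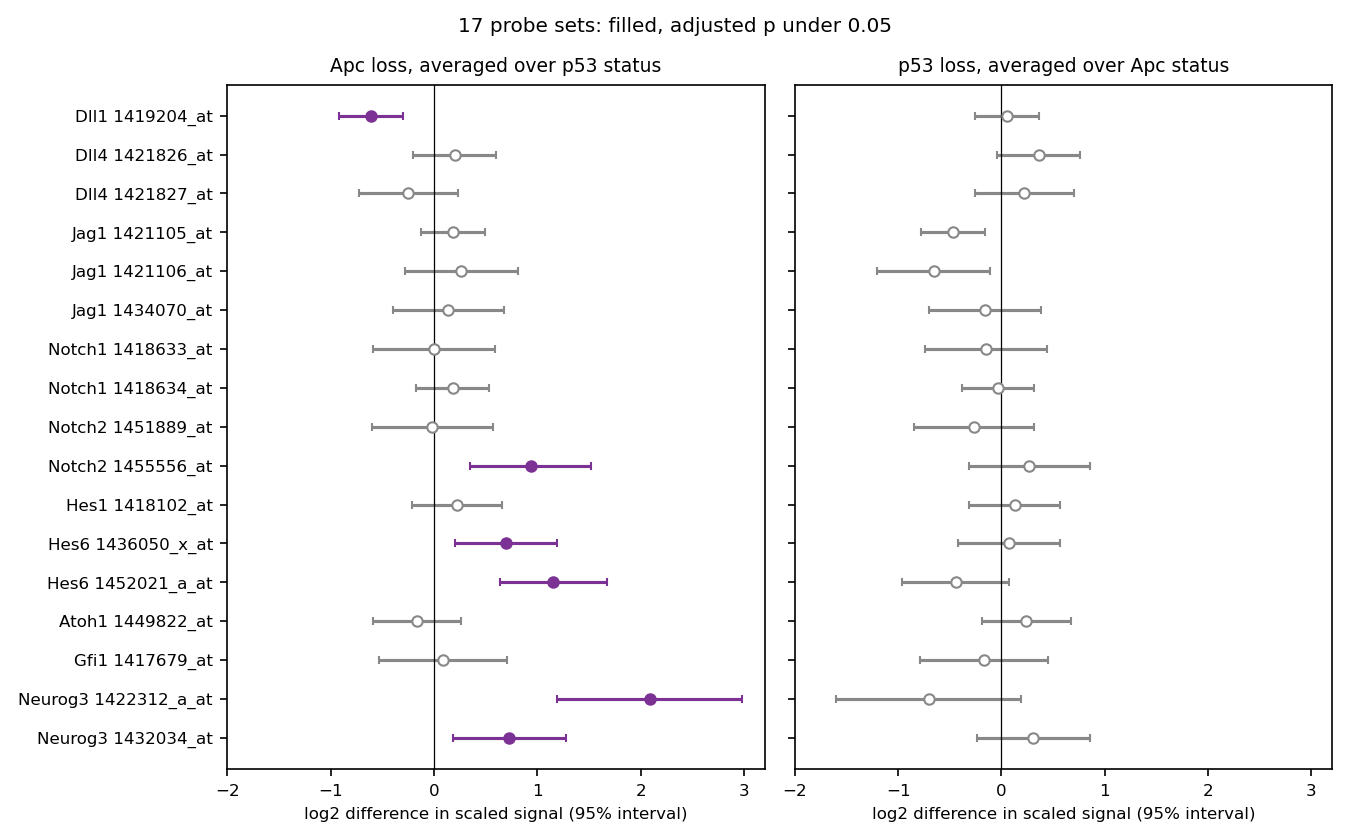
Log2 difference in scaled signal of the 17 probe sets for Apc loss averaged over p53 status (left) and p53 loss averaged over Apc status (right), with 95% intervals; filled points passed an adjusted p of 0.05. There are 6 filled points on the left and 0 on the right.

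Of single-genotype comparisons, Apc-deficient against control called 1 of the 17 probe sets, Hes6 1452021_a_at, with a log2 difference of 1.03 (SE 0.33, adjusted p = 0.04), where 27.1% of all probe sets were called. That call was lost in 14 of 22 alternative analyses, including the removal of any 1 control array. Double- against p53-deficient called 3 (17.6%), against 9.4% of all probe sets: Neurog3 1422312_a_at (adjusted p = 0.011), Hes6 1452021_a_at at 1.27 (SE 0.33, adjusted p = 0.037) and Dll1 at -0.77. No size from the main analysis is given for Neurog3 here, since it was undetected on p53-deficient arrays. With signals under 20 set to 20, Neurog3 no longer passed (log2 difference 1.10, adjusted p = 0.082). Without both arrays with pancreas transcripts, 0 of the 17 were called in either comparison, and double- against p53-deficient also fell to 0 without double-deficient array 2. Double-deficient against control called 0 of 17, with 5 at an unadjusted p under 0.05, where 15.6% of all probe sets were called. A variance trend in limma gave 3 calls there, and signals under 20 set to 20 gave 3 as well. SAM, the tool of the study's methods, was run at a false discovery rate of 0.02, stricter than the 0.05 used here, and called 0 members in Apc-deficient against control, where the lowest member q-value was 0.11.

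Apc loss was thus measured separately with p53 and without it, on arrays that these comparisons do not share. The sign of the log2 difference was the same in 11 of the 17 member probe sets (64.7%) and in 70.3% of all probe sets. For the interaction 0 of 17 members were called, 1 (Neurog3 1422312_a_at, adjusted p = 0.33, undetected on all p53-deficient and control arrays) had an unadjusted p under 0.05, and 0.0112% of all probe sets were called. Intervals for the difference were wide, for Hes6 1452021_a_at from -0.79 to 1.26, for Dll1 from -0.94 to 0.29 and for Notch2 1455556_at from -0.86 to 1.48.

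**Figure D3:**
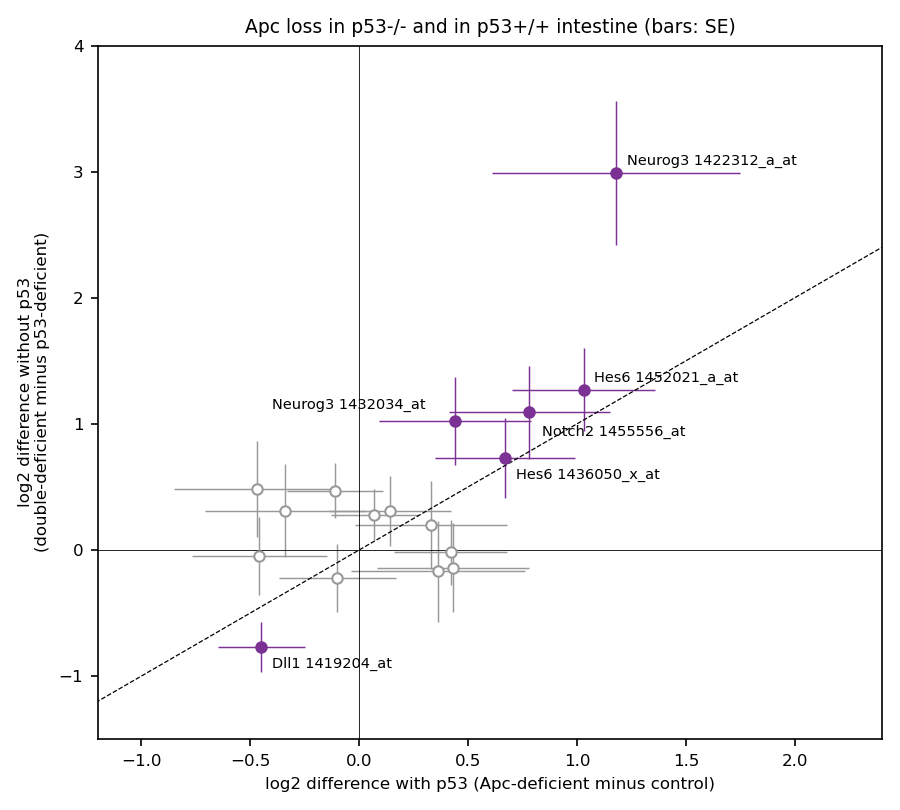
Log2 difference with Apc loss in p53-/- intestine (double-deficient minus p53-deficient, vertical axis) against that in p53+/+ intestine (Apc-deficient minus control, horizontal axis) for the 17 probe sets, with SE bars and the line of equal values dashed. The 6 filled, named probe sets passed the averaged Apc comparison; Neurog3 1422312_a_at, farthest from the line, was undetected on all p53-deficient and control arrays, so its position rests in part on signals below detection.

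p53 loss gave no call on any member. Averaged over Apc status, 0 of 17 were called, 2 had an unadjusted p under 0.05, and 1.23% of all probe sets were called. Both of the 2 were Jag1 probe sets. On 1421105_at, Jag1 signals were 115, 127.5 and 97.45 on double-deficient and 81.0, 115.8 and 84.9 on p53-deficient arrays, against 140.2, 141.1 and 154.8 on Apc-deficient and 128.7, 145.7 and 140.8 on control arrays. The 6 p53-/- arrays all lay below the 6 p53+/+ arrays, a separation that 1.39% of all probe sets showed. The log2 difference was -0.47 (SE 0.14, adjusted p = 0.13). The probe set was detected on 0 p53-deficient, 2 Apc-deficient and 1 control arrays, and the best detected Jag1 probe set, 1434070_at, gave -0.16 (95% interval -0.70 to 0.38). p53-deficient against control called 0 of 17 (3 at an unadjusted p under 0.05; 0.342% of all probe sets called) and double- against Apc-deficient called 0 of 17 (0 at an unadjusted p under 0.05; 0.182% of all probe sets called). For Atoh1 the averaged p53 difference was 0.24 (-0.19 to 0.67) and for Hes1 it was 0.13 (-0.31 to 0.57).

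The wider pathway was called with Apc loss about as often as any gene. With each gene represented by its brightest probe set, 18 of the 49 measured genes of 6 Notch lists were called (36.7%, 9 higher and 9 lower), beside 37.0% of all 15100 genes (19.9% higher and 17.1% lower). Of 4 Notch receptors 1 rose (Notch2) and 0 fell, with a median log2 difference of 0.16. Of 5 ligands 1 rose, Dll3 at 0.54 (adjusted p = 0.042), and 1 fell, Dll1. Dll3 was detected on 3 Apc-deficient, 1 p53-deficient and 0 control arrays. Of 16 modulators of ligands and receptors 3 rose and 4 fell. They included Mib1, an E3 ligase that ligand endocytosis requires, at 1.07 (adjusted p = 0.004), the glycosyltransferase gene Poglut1 at 1.14 (adjusted p = 0.00054), the Fringe gene Rfng at -0.82 (adjusted p = 0.0048; detected on 3 p53-deficient, 0 Apc-deficient and 0 control arrays) and the Deltex gene Dtx1 at -1.38 (adjusted p = 0.0004). Among 8 measured protease genes 0 rose and 2 fell, the γ-secretase subunits Aph1a at -0.82 (adjusted p = 0.0014) and Aph1b at -0.80 (adjusted p = 0.0015). Of 7 nuclear complex genes 3 rose and 0 fell, led by the acetyltransferase gene Kat2a at 1.80 (adjusted p = 0.00016). Of 9 HES, HEY, TLE and NRARP genes 1 rose and 2 fell. Those called were the corepressor genes Tle1 at 0.62 (adjusted p = 0.02) and Tle4 at -0.43 (adjusted p = 0.043), and Nrarp at -0.81 (adjusted p = 0.013). Tle4 averaged 521 in double-deficient against 897 in p53-deficient intestine, but 746 in Apc-deficient against 776 in control intestine. The latter comparison gave -0.06 (adjusted p = 0.84, limma). Nrarp, a Notch target that feeds back on the pathway, averaged 299 in double-deficient and 306 in Apc-deficient intestine, against 498 in p53-deficient and 553 in control intestine. No gene of these lists, nor of the fate factor list, was called for p53 loss.

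Of 21 measured secretory and endocrine fate factors 7 rose and 1 fell with Apc loss (38.1%), close to the share of all genes called, and the median of the list was 0.09, beside -0.01 over all probe sets. The 7 included Sox9, a Wnt target needed for Paneth cells, at 1.91 (SE 0.13, adjusted p = 3.3e-05), Foxa1 at 1.74 (SE 0.16, adjusted p = 0.0001) and Foxa2 at 1.59 (SE 0.20, adjusted p = 0.00036), which was detected on 2 Apc-deficient arrays and no Apc+/+ array. Klf4, a factor of goblet and surface cells, fell (-1.30, SE 0.20, adjusted p = 0.0011). It averaged 767 in double-deficient against 3020 in p53-deficient intestine, and 1400 in Apc-deficient against 2010 in control intestine. The latter comparison gave -0.62 (SE 0.29, adjusted p = 0.13, limma) and was not called. Markers of mature secretory cells were counted by cell type, each count beside the 37.0% of all genes called. Goblet cell markers fell in 6 of 11 and rose in 1 (median -1.21), with Muc2, the main intestinal mucin, at -1.21 (SE 0.19, adjusted p = 0.0011). Apc-deficient against control called 5 goblet markers lower and 1 higher (median -1.13). Double- against p53-deficient called 5 lower and 0 higher (median -1.28). Double-deficient against control called only Agr2, which fell (list median -0.57), where 15.6% of all probe sets were called. In p53-deficient against control intestine the goblet median was 0.59, with 0 called. Enteroendocrine markers fell in 7 of 13 and rose in 0 (median -0.69), with Chga at -0.29 (adjusted p = 0.22). Of those that fell, Pyy was detected on 0 Apc-deficient, 0 p53-deficient and 0 control arrays. Paneth cell markers rose in 3 of 7 and fell in 0 (median 0.90). The list held 10 genes, and its defensin genes were not among the 7 measured. In p53-deficient against control intestine the median of the 7 was 0.98, with 0 called. With p53, 4 of 7 Paneth markers were called (Apc-deficient against control, median 1.05), and without p53 only Pla2g2a was called (double- against p53-deficient, median 0.11), while the interaction called 0 of 7. Tuft cell markers fell in 3 of 6 and rose in 0 (median -0.74). Among those that fell, Alox5 and Sh2d6 were each detected on 1 p53-deficient, 0 Apc-deficient and 0 control arrays. Double-deficient against control called 0 of the 6 tuft markers (median -0.19).

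**Figure D4:**
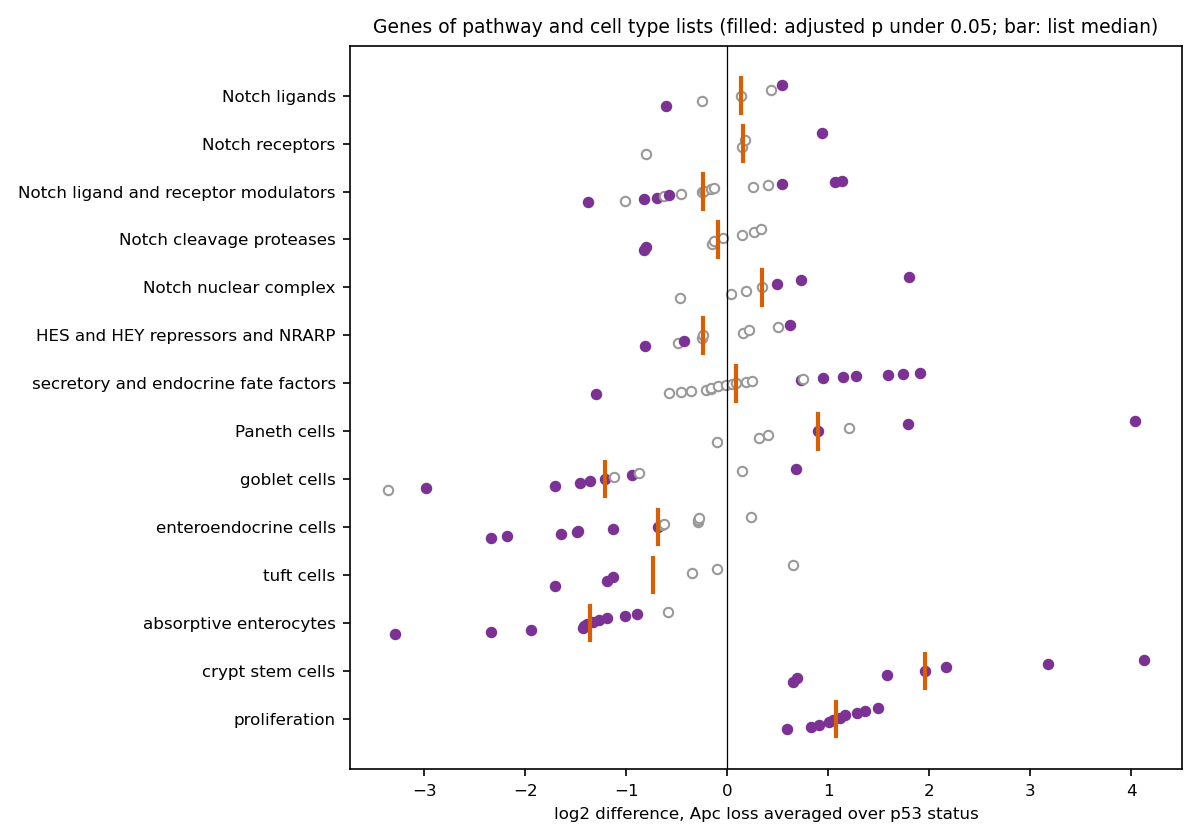
Log2 difference for Apc loss averaged over p53 status for each measured gene of 14 lists; filled points passed an adjusted p of 0.05 and the bar is the list median. The fate factor list has 7 filled points to the right of 0 and 1 to the left, whereas goblet cell and enteroendocrine markers have 6 and 7 filled points to the left.

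Markers of other cell populations were tested in the same comparison. All 7 crypt stem cell markers rose (median 1.96), and their median log2 signal ran from 9.66 to 10.09 on double-deficient and 9.75 to 10.22 on Apc-deficient arrays, against 7.31 to 7.95 on p53-deficient and 7.46 to 7.62 on control arrays. All 10 measured proliferation markers rose (median 1.08), whereas 11 of 12 absorptive enterocyte markers fell (median -1.36). Lymphocyte markers fell in 5 of 7, endothelial in 2 of 8, fibroblast in 3 of 7, enteric nervous system in 2 of 6 and myeloid in 2 of 6, with 0 rising in each; for endothelial, enteric nervous system and myeloid markers these shares (25.0%, 33.3% and 33.3%) were below that of all genes. Smooth muscle markers gave 0 calls of 8 and exocrine pancreas 0 of 9. Fewer cells of a type and less RNA per cell cannot be told apart in these whole-tissue samples, and the part of cell composition in the changes of Neurog3, Hes6, Notch2 and Dll1 was not tested.

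The genes whose pattern over the 12 arrays was closest to each called member were found among 10471 genes by the root mean square difference of centred log2 signals. For Dll1, which itself varied by 0.35 around its mean, they were Wdr7 and Dennd3 at 0.12 and the thrombomodulin gene Thbd at 0.13. For Hes6 (own spread 0.71) Fxyd3, Hdgf and Marcksl1 each lay at 0.18. Notch2 (0.63) was nearest to the chromatin remodeller gene Chd7 at 0.26, the β-catenin cofactor gene Bcl9 at 0.27 and a gene annotated as Nrp at 0.32. Neurog3 (0.56) was nearest to Rps24 at 0.25 and Mettl8 and Mtf2 at 0.26.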

How the data were processed

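Small intestine of 12 mice, 3 per genotype, had been hybridised to Affymetrix MOE430_2 arrays. For every probe set and array the authors deposited a linear signal intensity, not yet normalised, with its detection p-value; the software behind them was not stated. Normalised scores for 34271 probe sets, which the authors deposited as well, served as an alternative. Detection columns of the double-deficient arrays, 3 in all, name no mouse and were not used, so detection rests on the other 9 arrays. The screen asked for a detection p-value below 0.2 on 1 or more of these 9 arrays, which 35622 probe sets met. Signals below 1 were raised to 1, and log2 values were centred per array. A model of 1 mean per genotype (limma 3.58.1, R 4.3.3, 8 residual degrees of freedom) gave p-values adjusted by the Benjamini-Hochberg method; it was tested on simulated data. Probe sets were named from the platform annotation, and a listed gene was represented by its brightest probe set, _s_at and _x_at only where it had no other. From each pathway list up to 4 called genes were named, by size of change. Members and lists were chosen with earlier results of these data known. The labels do not say whether samples of a genotype shared a litter, so p-values measure the spread between these samples, and 12 arrays limit the precision. Alternatives were other scalings, screens, floors and variance models, arrays left out, and SAM.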

Additional observations from a re-analysis of the deposited data

How the results depend on the processing

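No paired analysis was possible because the labels give the genotypes no shared replicate numbers. Of 10 calls on single members, tried in 202 combinations of call and alternative, 139 kept their call, 63 lost it and 0 changed direction. For averaged Apc loss, Hes6 1452021_a_at, Dll1 and Notch2 1455556_at kept theirs in all 20 alternatives and Neurog3 1422312_a_at in all 19 that included it, while Neurog3 1432034_at and Hes6 1436050_x_at kept theirs in 7 each. The count of members called for averaged Apc loss, 6 with all arrays, ran from 4 to 5 with 1 array left out. Apc-deficient against control, 1 in the main analysis, gave 2 without scaling and 2 with detection under 0.05 on at least 3 arrays, 0 in a fit of those genotypes alone, 0 without both arrays with pancreas transcripts, 0 by SAM, and 0 to 2 with 1 array left out. Double- against p53-deficient, 3 in the main analysis, gave 1 with no detection screen, 1 in a fit of those genotypes alone, 0 without both pancreas arrays, and 0 to 4 with 1 array left out. Double-deficient against control, 0 in the main analysis, gave 1 with quantile normalisation, 2 with the deposited normalised table, 2 with the stricter screen, 3 with signals under 20 set to 20, 3 with a variance trend, 1 in a fit of those genotypes alone, and 0 to 2 with 1 array left out. p53-deficient against control, 0 in the main analysis, gave 1 without scaling. The cause of these changes was not tested. SAM was not run for double- against p53-deficient, for which the methods give no false discovery rate.

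Without scaling, the median of all probe sets shifted by -0.66 (Apc-deficient minus control), -0.56 (p53-deficient minus control) and -0.17 (averaged Apc loss) on the log2 scale, so all changes are relative to the array mean. Letters in the detection column names split the arrays by p53 status, so if they mark a batch, batch and p53 status cannot be told apart, while Apc comparisons lie within a letter. Digits there differ between all 4 genotypes, and what they mark is not stated; if they mark runs, run and genotype cannot be told apart. Low signals limit Neurog3, which no Apc+/+ array detected, and the second probe sets of Notch1, Notch2 and Jag1.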
